A study of Mus musculus with 2 samples.

Results

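The genes described here encode the proteasome: 49 protein-coding genes whose symbols begin with Psma to Psmg followed by a digit, taken from the 21887 protein-coding genes of the mouse RefSeq table. Psmc3ip and Psme3ip1, which share the letters but encode other proteins, were left out. By role, 19 encode the core particle, 9 the base and 8 the lid of the regulatory particle, 5 activators, 1 an inhibitor, and 7 assembly chaperones. They lie on 16 chromosomes. Arid1b, a DNA-binding subunit of SWI/SNF chromatin remodelling complexes of the BAF type, was mapped by ChIP-seq (immunoprecipitated chromatin, sequenced) in primary dental mesenchyme cells. They were taken from the apical portion of the first molars in the lower jaw of wild-type C57BL/6 mice, aged 3.5 to 7.5 days after birth, and were cultured with 10% serum. There was 1 ChIP library and 1 input library, made from chromatin without antibody. The title of the series names Arid1a and its design text mice with a Cre-driven Arid1a deletion, whereas the labels of both libraries name wild-type mice, and that of the ChIP an Arid1b antibody.

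The proteasome is the protease that degrades proteins tagged with ubiquitin. Its core particle is a barrel of stacked rings, the outer ones built from alpha subunits (Psma genes) and the inner ones from beta subunits (Psmb genes), some of which carry the proteolytic sites. The regulatory particle caps the barrel: its base holds the ATPases that unfold substrates, and its lid holds the enzyme that removes ubiquitin chains. Activators can cap the barrel in its place, and dedicated chaperones guide assembly. Most of these genes are expressed in nearly all cells, whereas the immunoproteasome genes Psmb8, Psmb9 and Psmb10, the thymic Psmb11 and the testicular Psma8 are tissue-restricted or inducible.

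The deposited list held 8318 peaks of ChIP over input, with a fold enrichment at the summit (a linear ratio, the authors' value) from 1.37 to 17.1 and a median of 3.72. The number of fragments piled up at a summit had a median of 38, against a genome background level of 8.68. Where the expected level was that background, the smallest pileup in the list was 24, a fold of 2.58, so a gene without a peak may still hold signal below this level. Since each group is a single library, nothing checks the values by replication and no conditions were tested. The intervals of folds below are exact Poisson 95% intervals of the pileup, those of shares are exact binomial (Clopper-Pearson) 95% intervals, and both cover counting error only. Of markers of the labelled cell type, 10 of 11 dental mesenchyme genes had a peak within 1 kb of a gene boundary (all but Prrx1). Among other cell types the counts were 2 of 7 for dental epithelium (Ambn among them) and 0 of 5 for endothelium. They were 0 of 6 for blood and immune cells and 0 of 5 for neurons and glia. Of all protein-coding genes, 22.2% had such a peak. The interval was 58.7 to 99.8% for dental mesenchyme. The intervals of the other cell types include 22.2%: 3.67 to 71.0% for dental epithelium, up to 52.2% for 0 of 5 and up to 45.9% for 0 of 6. The counts are of peaks and not expression values. The marker lists were chosen with earlier results of these data known, so their shares and intervals only describe the genes picked.

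Of the 49 proteasome genes, 18 had part of an Arid1b peak within 1 kb of a gene boundary, which is 36.7% (23.4 to 51.7%). The same rule took 22.2% of all protein-coding genes (4857 of 21887). The peaks of proteasome genes were of ordinary height. Taking the highest boundary peak of each gene, the median fold was 3.93 over the 18 members and 3.92 over all genes with a boundary peak. For 16 of the 18 members the interval of the fold included the latter median. The exceptions were Psma7 and Psme2, which lay above it. The median width was 250.5 bp, against 318 bp for other coding genes with a boundary peak, and 2 of the 18 members had several boundary peaks (11.1%, against 21.8% of the other genes).

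By the 1 kb rule, lid genes held the largest share and core genes the smallest share among roles with several genes. Boundary peaks lay at 5 of 8 lid genes (62.5%, 24.5 to 91.5%), at 4 of 9 base genes (44.4%, 13.7 to 78.8%) and at 4 of 19 core genes (21.1%, 6.05 to 45.6%). Among the others they lay at 3 of 7 assembly genes (42.9%, 9.90 to 81.6%), at 2 of 5 activator genes (40.0%, 5.27 to 85.3%) and at the inhibitor gene not at all (0 of 1). Base and lid together had 9 of 17 (52.9%, 27.8 to 77.0%). The intervals of all roles overlap, so lists of these sizes do not separate the roles. The order turned under stricter rules: at a -log10 q of at least 10, activators had 2 of 5, lid 2 of 8 and assembly 0 of 7, and with peaks at background input only, assembly had 3 of 7, activators 2 of 5 and lid 1 of 8. None of the 5 tissue-restricted core genes had a boundary peak, which allows a share of up to 52.2%, and without them the core count was 4 of 14 (28.6%, 8.39 to 58.1%).

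**Figure D1:**
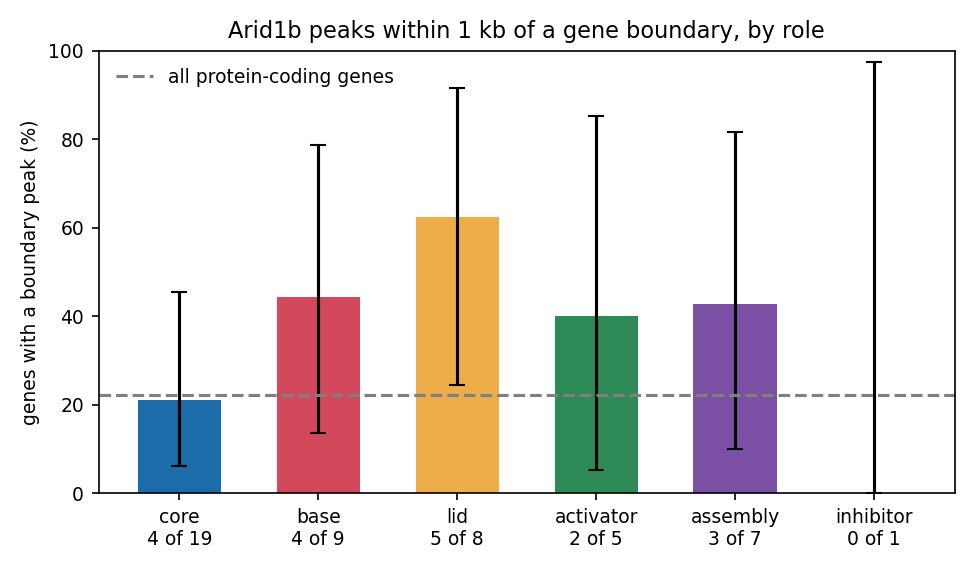
Percent of proteasome genes of each role with an Arid1b peak within 1 kb of a gene boundary; error bars are exact binomial 95% intervals and the dashed line is the share of all protein-coding genes (22.2%). The lid bar is the highest at 62.5% and the core bar lies near the dashed line at 21.1%, with intervals that overlap between all roles.

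Core genes held the strongest peak of the proteasome genes, and 15 of the 19 core genes had no boundary peak. Psma7, an alpha-ring gene at chr2:180036367-180042464 (mm10), had the highest fold, 7.23 (5.65 to 9.12, pileup 69), at chr2:180042464-180043045. This peak ranked 118 by fold among the 8318 and has one edge on the base of the annotated start. The intervals of 12 of the other 17 members lay wholly below that of Psma7. A second, weaker peak of 2.82 (2.09 to 3.73) lay inside Psma7, over a local input level of 16.0, above the genome background. Psma2, another alpha-ring gene, had a peak of 4.73 (3.503 to 6.26) at chr13:14613308-14613654. Of the beta-ring genes, Psmb3 had one of 4.44 (3.23 to 5.97) at chr11:97703366-97703703 and Psmb7, which encodes a catalytic subunit, one of 3.58 (2.56 to 4.87) at chr2:38643658-38643890.

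The other catalytic genes of the constitutive core, Psmb5 and Psmb6, had no peak in the gene or within 10 kb. Their nearest peaks lay 10588 and 118776 bp away. The inducible counterparts Psmb8, Psmb9 and Psmb10 lay 75127, 58962 and 27381 bp from the nearest peak, Psmb11 21778 bp and Psma8 21006 bp. The constitutive core genes Psma4, Psma6, Psmb1, Psmb2 and Psmb4 also had none within 10 kb, at distances of 28712 to 86870 bp. Psma3 had a peak that the boundary rule did not count. Its outer boundary lies at position 70969283 of chromosome 12, the RefSeq promoter table places its start at 70974623, and a peak of 4.34 (3.27 to 5.66) at chr12:70974723-70975349 had its summit 240 bp past that start. Psma5 and Psma1 had their nearest peaks 3731 and 9866 bp outside the gene, each within 1 kb of a boundary of another coding gene.

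Among base genes the peaks lay at the ATPase genes Psmc2 and Psmc6, at the scaffold gene Psmd1 and at the ubiquitin receptor gene Psmd4. Their folds were alike: 4.44 (3.23 to 5.97) at Psmc2, 4.03 (2.94 to 5.40) at Psmd4, 3.75 (2.67 to 5.13) at Psmc6 and 3.65 (2.58 to 5.01) at Psmd1, with pileups of 42, 43, 37 and 36. Each of these intervals includes the other 3 values, so no order can be read among them. The ATPase genes Psmc1, Psmc3 and Psmc4 had no peak within 10 kb, at distances of 63731, 10603 and 129495 bp. Psmc5 and the scaffold gene Psmd2 had one 9288 and 9393 bp outside the gene, in both cases within 1 kb of a boundary of another coding gene.

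Lid genes had boundary peaks at Psmd14, Psmd3, Psmd11, Psmd7 and Psmd12. Psmd14, which encodes the deubiquitinase of the lid, had the highest fold of the role, 4.13 (3.02 to 5.51) at chr2:61711829-61712139. It was followed by Psmd3 at 3.94 (2.87 to 5.30), Psmd11 at 3.92 (2.79 to 5.37) and Psmd7 at 3.67 (2.63 to 4.98). Psmd12 had the lowest fold of the 18 members, 2.93 (2.02 to 4.13), from a pileup of 31 over an expected level of 9.91. The lid folds thus span a narrow range, and every interval overlaps the others. Psmd6 and Psmd13 had their nearest peaks 99236 and 25218 bp away, and Psmd8 had peaks of 2.88 and 3.25 at 2495 and 4383 bp outside the gene.

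Of the activator genes, Psme2 and Psme3 had boundary peaks. Psme2 encodes a subunit of the interferon-inducible activator that it forms with the product of Psme1, and its peak of 5.78 (4.38 to 7.496, pileup 55) at chr14:55591261-55591507 ranked 365 in the list. Psme1 lies 5912 bp from Psme2 and had no boundary peak, and its nearest peak was that of Psme2, 9734 bp away. Psme3, which encodes a nuclear activator that forms a ring of its own, had a peak of 4.54 (3.32 to 6.08) at chr11:101316256-101316512. Psme4, the gene of another nuclear activator, had its nearest peak 504015 bp away, and Psme2b 73949 bp. The inhibitor gene Psmf1 lay 172861 bp from the nearest peak.

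Assembly genes had the lowest folds by median, 3.72 over 3 genes, against 3.89 for base, 3.92 for lid, 4.59 for core and 5.16 for activator genes with a boundary peak. The peaks lay at Psmd5 (3.82, 2.71 to 5.25) and Psmd9 (3.61, 2.53 to 5.01), which encode chaperones of the base, and at Psmg2 (3.72, 2.62 to 5.13), which encodes a chaperone of the core. Each of these 3 intervals includes the medians of base, lid and core, so fold does not separate assembly genes from those roles. The activator median rests on 2 genes. Psmg2 had a second peak of 3.10 (2.11 to 4.40). Its partner Psmg1 lay 90649 bp from the nearest peak, and the other core chaperone genes Psmg3 and Psmg4 lay 31638 and 160256 bp away. Psmd10, the third chaperone gene of the base, is on chromosome X, its nearest peak was 3841662 bp away, and few genes of that chromosome had a boundary peak (24 of 966).

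**Figure D2:**
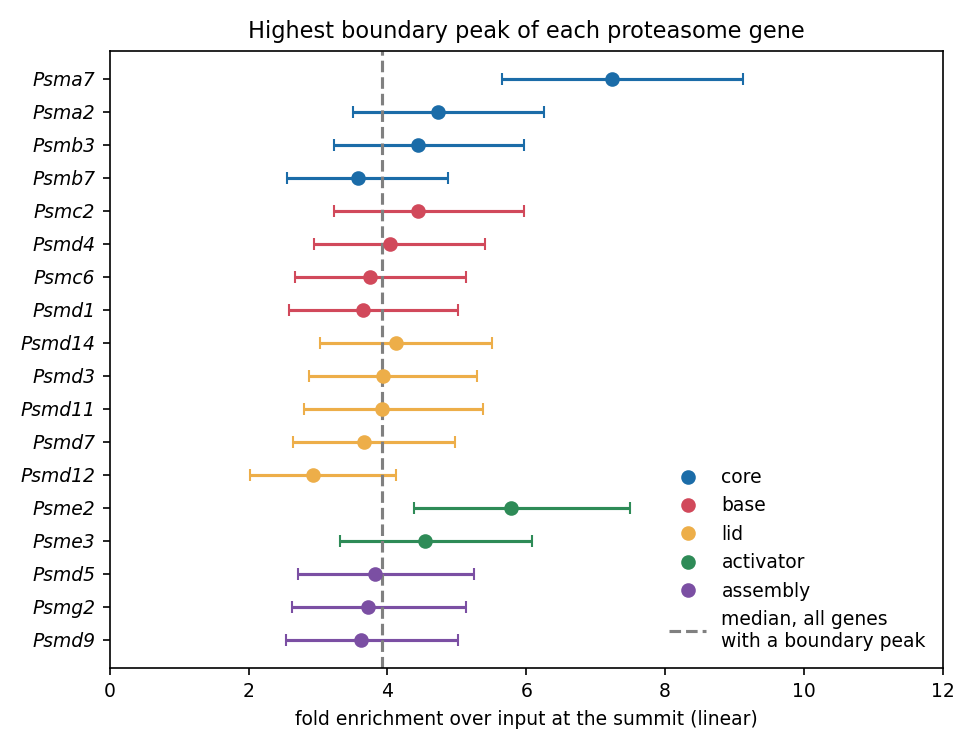
Fold enrichment over input at the summit (linear axis) of the highest boundary peak of each of the 18 proteasome genes that had one, grouped by role, with exact Poisson 95% intervals. Psma7 at 7.23 and Psme2 at 5.78 lie right of the dashed median of all genes with a boundary peak (3.92), and the other 16 intervals cross it.

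The peaks of proteasome genes mostly sat beside the start of transcription rather than on it, as did those of most other coding genes. The promoter table gave a strand and a start for 41 of the 49 genes, 14 of them with a boundary peak. In all 14 the peak lay within 1 kb of the start, as it did in 93.9% of other coding genes with a boundary peak and a start (3696 of 3935). The remaining 239 had no peak within 1 kb of a listed start. The summit of the highest peak lay inside the gene, past the start, in 11 of the 14 (78.6%), with 70.8% for other genes whose summit was within 1 kb of the start. The median position was 208.5 bp past the start in members (quartiles 100.25 and 229 bp) and 177 bp in other genes (quartiles -105 and 277 bp). Summits lay at 176 bp in Psmd1, 201 in Psme3, 208 in Psmd5, 209 in Psmd12, 226 in Psma2, 229 in both Psmd4 and Psmd9, 254 in Psmd14 and 269 in Psmc6. Psmd11 was farther in, at 409 bp, and Psmb3 nearer, at 75 bp.

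Only at Psma7 and Psmb3 did the highest peak include the start itself (14.3% of 14, against 20.6% in other genes). Upstream summits were found at Psma7 (-124 bp), Psmc2 (-243 bp) and Psme2 (-274 bp). For genes without a start in the promoter table the position was read from a gene boundary. The peak of Psmd3 began 40 bp inside the low-coordinate boundary, and those of Psmb7 and Psmd7 lay 62 and 110 bp inside the high-coordinate boundary. No strand was listed for these genes, so which boundary holds the start was not read. No member lay near the limit of the rule: the boundary peak farthest out was the stronger one of Psmg2, 332 bp from the gene, and the nearest peak not counted was 2495 bp from Psmd8.

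**Figure D3:**
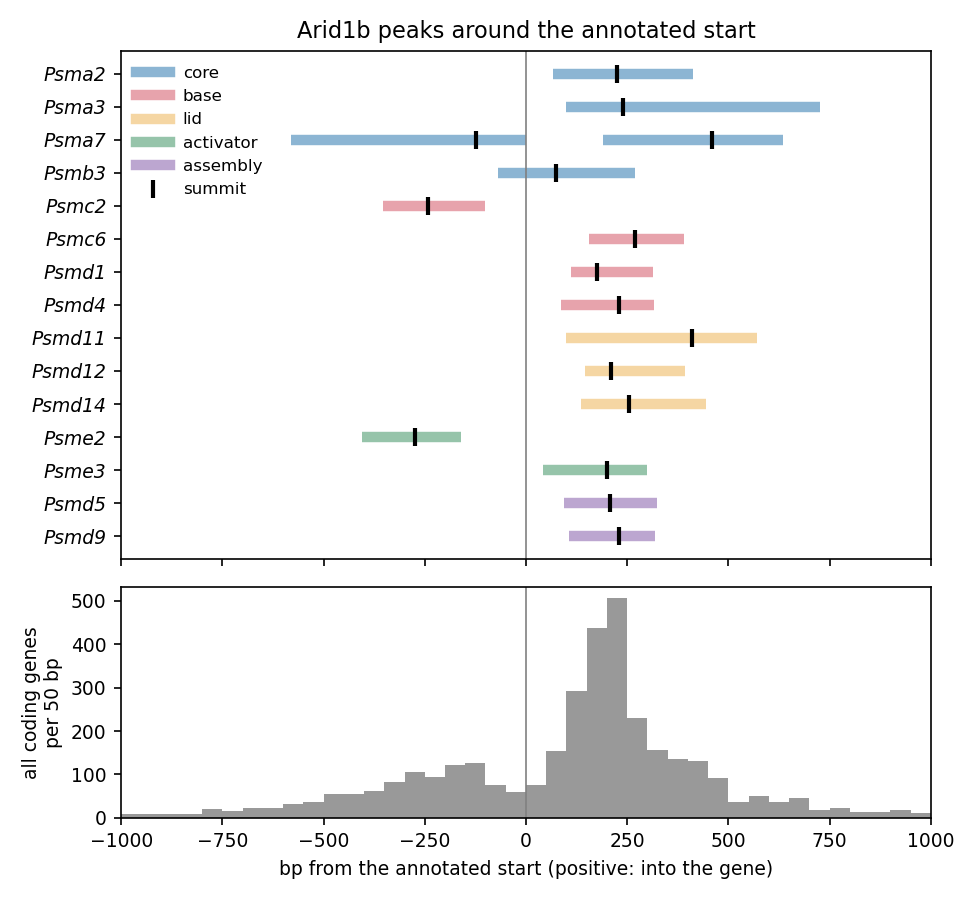
Upper panel, the extent (bars, coloured by role) and summits (black ticks) of the peaks within 1 kb of the annotated start of 15 proteasome genes, in bp from the start with positive values inside the gene; lower panel, summits of the highest boundary peak of all coding genes in bins of 50 bp. Most member summits lie 176 to 269 bp inside the gene, under the main mode of the lower panel, and those of Psma7, Psmc2 and Psme2 lie upstream.

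Of the 18 members, 6 shared the vicinity of their peak with another coding gene, the 3 with the highest folds (Psma7, Psme2 and Psma2) among them. The same share was not counted over all coding genes, so whether 6 of 18 is an unusual rate cannot be told. Psma7 and Ss18l1, itself a gene for a SWI/SNF subunit, face each other with 18 bases between them. The peak of 7.23 had its summit 105 bp inside Ss18l1 and the peak of 2.82 had its summit 460 bp inside Psma7. A like arrangement was seen at Psmg2 and Cep76, whose facing boundaries are 231 bases apart: the peak of 3.72 had its summit 274 bp inside Cep76 and the peak of 3.10 had its summit 132 bp inside Psmg2. Psmc2 and Dnajc2 are separated by 10 bases, and the single peak there, counted for Psmc2, had its summit 232 bp inside Dnajc2. At these 3 pairs, therefore, all 5 summits lay inside one or the other gene, and the upstream position at Psma7 and Psmc2 is a position inside the neighbour.

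The other shared peaks were arranged differently. Psma2 and Mrpl32 are 204 bases apart, and the summit lay 226 bp inside Psma2. The peak of Psme2 lay in the 611 bases between Psme2 and Rnf31, with its summit 274 bp from Psme2 and 338 bp from Rnf31. Psmb3 and Pcgf2 are 999 bases apart, and the peak lay at Psmb3. For a peak between facing genes, which gene the signal belongs to cannot be told from these data. Over the 41 members with a start, 7 had the listed start of another coding gene on the opposite strand within 1 kb. Of these 7, 3 had a boundary peak (Psma7, Psma2 and Psme2), as did 11 of the 34 with no such start listed. Only 17492 of the 21887 coding genes have a listed start. Dnajc2 has none, so Psmc2 counts among the 34, and the split depends on the annotation.

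Promoter composition and motifs are given as a description, and no difference was tested. The windows compared run from 250 bases before to 50 bases after the RefSeq start (GRCm38.p6, the assembly that mm10 names). Median GC content was 61.8% in the 14 members with a boundary peak (quartiles 55.2 and 66.1%) and 55.0% in the 27 without (52.5 and 60.5%), beside 63.3 and 54.0% for all coding genes with and without such a peak. The CpG ratio, observed over expected from base composition, had a median of 0.765 in members with a peak and 0.727 in members without, whereas all coding genes had 0.830 with a peak and 0.417 without. Members without a peak thus had higher CpG ratios than other genes without one, by these medians. The lowest ratios were those of Psme2b (0.0904), Psmb11 (0.165), Psma6 (0.185) and Psmb10 (0.192), all without a boundary peak. The table lists a second start for Psma6, and its first window was used here. Members with a boundary peak were longer, with a median gene length of 15967 bp against 8391 bp without, and 17181.5 bp in other coding genes. The lengths of other coding genes were not split by peak.

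Matches to motifs of transcription factors were counted on both strands of these windows. CCGGAAG, a core bound by ETS factors, was in 13 of 41 proteasome promoters (31.7%, 18.1 to 48.1%), in 11.9% of all coding promoters and in 19.8% of those of genes with a boundary peak. By role and first listed window, it was in 5 of 8 base, 4 of 6 lid, 2 of 5 activator and 2 of 6 assembly promoters and in 0 of 15 core promoters. Counting any listed window gave 14 of 41, against 12.9% of all. The gene added was the core gene Psma6, through its second window, so the 0 of 15 holds for first windows only. Members with and without a boundary peak held the ETS core in 6 of 14 and 7 of 27 first windows. CCAAT, bound by NF-Y, was in 14 of 41 (34.1%, against 39.0% of all), among them 8 of the 15 core promoters, and the GC box GGGCGG was in 23 of 41 (56.1%, against 46.3%). TGACNNNGC, the core of the antioxidant response element through which Nfe2l1 and Nfe2l2 induce proteasome genes, was in 6 of 41 (14.6%, 5.57 to 29.2%) and in 13.2% of all. The 6 were Psmc6, Psmd9 and Psmd12, with a boundary peak, and Psmb5, Psmb6 and Psme4, without. TGANTCA (AP-1) was in 2 of 41 (4.88%, against 7.08%), the palindrome of NRF1 in 2 (4.88%, against 1.32%), the motif of YY1 in 1 (2.44%, against 0.972%) and TGACGTCA (CRE) in 0, which allows up to 8.60% (2.34% of all). A match describes letters and not a bound site.

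**Figure D4:**
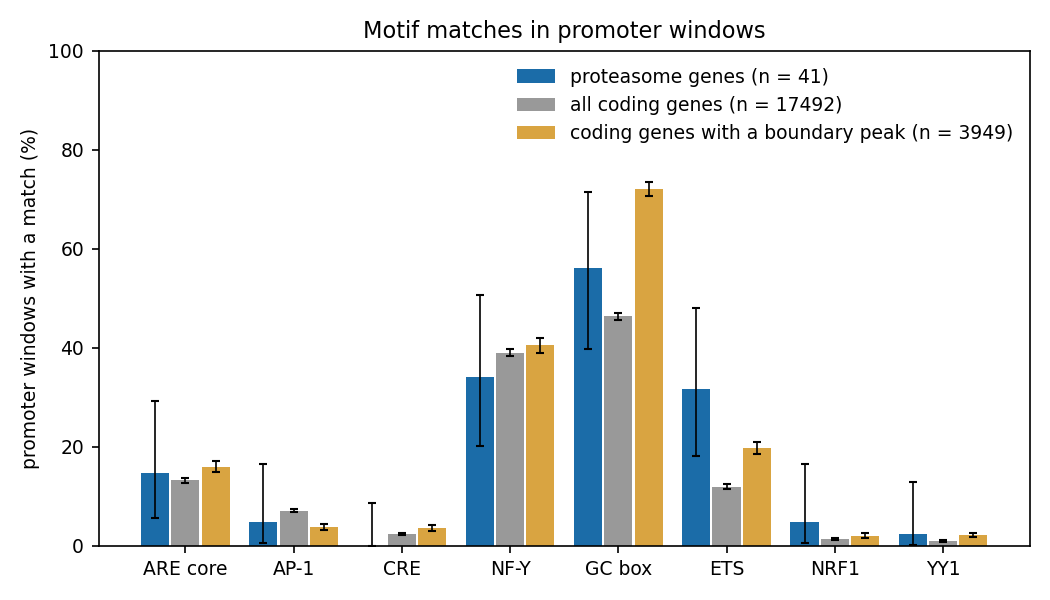
Percent of promoter windows with at least 1 match to each motif, for 41 proteasome genes, all 17492 coding genes with a window and the 3949 of these with a boundary peak; error bars are exact binomial 95% intervals and ARE core is the antioxidant response element core. The ETS core is the motif whose proteasome bar (31.7%) differs most from that of all coding genes in relation to its interval (18.1 to 48.1%, against 11.9%).

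The following bases, read 5′ to 3′ on the strand of the gene and ending at the last base before the start, show where the peak reaches into the promoter of the member with the highest fold in the core, base and activator roles. Only bases outside other genes are shown, and capitals mark bases inside the peak. They run over chr2:180042465-180042482 (minus strand) for Psma7, chr5:21785265-21785274 (plus strand) for Psmc2 and chr14:55591102-55591351 (minus strand) for Psme2.
Psma7: GCACGTCCCCCTGACGCC
Psmc2: tacttcctct
Psme2: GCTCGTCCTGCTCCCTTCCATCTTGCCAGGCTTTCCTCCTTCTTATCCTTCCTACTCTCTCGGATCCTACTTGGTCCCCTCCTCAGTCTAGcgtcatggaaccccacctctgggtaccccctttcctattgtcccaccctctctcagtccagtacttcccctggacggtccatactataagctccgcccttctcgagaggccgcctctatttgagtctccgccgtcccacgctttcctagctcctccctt
At Psma7 the whole gap to Ss18l1 was inside the peak, at Psmc2 none of the gap to Dnajc2 was, and at Psme2 the 91 bases farthest from the start were.

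The next set gives the last 200 or 250 bases before the start of the strongest lid and assembly genes and of 4 genes with an antioxidant response element core, and here capitals mark matches to any of the motifs above. The stretches are chr2:61711494-61711693 (plus strand) for Psmd14, chr2:34870963-34871162 (minus) for Psmd5, chr5:123227990-123228189 (plus) for Psmd9, chr14:45329574-45329823 (plus) for Psmc6, chr11:107479278-107479527 (plus) for Psmd12 and chr14:54617996-54618195 (minus) for Psmb5.
Psmd14: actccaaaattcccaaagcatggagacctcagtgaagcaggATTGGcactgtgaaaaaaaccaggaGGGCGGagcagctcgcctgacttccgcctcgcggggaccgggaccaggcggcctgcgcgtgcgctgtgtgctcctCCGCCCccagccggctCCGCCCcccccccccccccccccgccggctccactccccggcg
Psmd5: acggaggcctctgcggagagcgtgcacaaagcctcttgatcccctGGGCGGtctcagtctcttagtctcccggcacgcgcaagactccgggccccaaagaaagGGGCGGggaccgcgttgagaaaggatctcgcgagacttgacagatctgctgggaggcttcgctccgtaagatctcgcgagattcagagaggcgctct
Psmd9: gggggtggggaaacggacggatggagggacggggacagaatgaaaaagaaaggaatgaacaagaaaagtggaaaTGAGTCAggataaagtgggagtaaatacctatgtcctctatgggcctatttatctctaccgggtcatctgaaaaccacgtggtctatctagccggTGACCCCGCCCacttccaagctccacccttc
Psmc6: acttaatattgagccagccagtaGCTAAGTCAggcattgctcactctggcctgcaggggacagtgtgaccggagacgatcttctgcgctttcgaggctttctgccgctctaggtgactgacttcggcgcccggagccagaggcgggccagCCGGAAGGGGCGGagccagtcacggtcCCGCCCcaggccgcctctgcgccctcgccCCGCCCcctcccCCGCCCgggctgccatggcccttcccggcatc
Psmd12: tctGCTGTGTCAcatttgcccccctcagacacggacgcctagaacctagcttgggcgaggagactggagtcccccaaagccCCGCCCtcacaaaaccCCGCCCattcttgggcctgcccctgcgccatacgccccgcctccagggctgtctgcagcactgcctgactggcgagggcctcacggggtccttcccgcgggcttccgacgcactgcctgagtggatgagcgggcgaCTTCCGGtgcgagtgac
Psmb5: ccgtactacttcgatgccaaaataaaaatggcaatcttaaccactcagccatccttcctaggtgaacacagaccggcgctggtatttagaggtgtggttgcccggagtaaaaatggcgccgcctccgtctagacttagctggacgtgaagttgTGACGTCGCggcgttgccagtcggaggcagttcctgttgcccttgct
The summits of the first 5 lay 208 to 269 bp beyond the end of the printed bases, inside the gene, and Psmb5 had no peak within 10 kb. Psmd14 holds 1 CCAAT and 3 GC boxes and Psmd5 holds 2 GC boxes in these stretches. Psmd9 has its antioxidant response element core 31 to 23 bases before the start, overlapping a GC box, and an AP-1 match farther out. In Psmc6 the ETS core directly precedes a GC box, and in Psmd12 an ETS core on the opposite strand lies 17 to 11 bases before the start. The antioxidant response element cores of Psmc6 and Psmd12 lie more than 200 bases before the start, on the opposite strand, and that of Psmb5 lies 47 to 39 bases before it.

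Genes that work with the proteasome but fall outside the symbol rule had boundary peaks more often than the proteasome genes by count: 21 of 29 in the table (72.4%, 52.8 to 87.3%), beside the 22.2% of all coding genes. Paaf1 was not matched by symbol. The list was chosen with earlier results of these data known, so its share and interval only describe the genes picked. The polyubiquitin gene Ubb had a fold of 6.61 (5.10 to 8.43) and 3 boundary peaks. Nfe2l1 and Nfe2l2, the genes of transcription factors that induce proteasome genes, had 5.16 (3.85 to 6.79) and 4.85 (3.72 to 6.22), with 2 boundary peaks each. The genes of regulators of Nfe2l1 processing had 4.54 at Ddi2, a protease gene, and 4.44 at Ngly1, a deglycosylase gene.

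Partners that bind the particle itself had folds from 3.04 to 4.73. The ubiquitin receptor gene Adrm1 had 4.73, the small lid subunit gene Sem1 3.04, and the deubiquitinase genes Uchl5 and Usp14 had 4.03 and 3.92. Akirin2, the gene of a factor for nuclear import of proteasomes, had 3.51, and Txnl1, a thioredoxin-like partner, had 3.08. Shuttle receptor genes, which bring ubiquitinated proteins to the particle, had 3.06 at Rad23b, 3.72 at Ubqln1 and 3.66 at Ubqln4. Vcp, the gene of an unfolding ATPase, had 2.59, its cofactor gene Nploc4 2.91, Zfand5 3.10, the ubiquitin-fusion gene Rps27a 3.03 and the ubiquitin-activating enzyme gene Uba6 4.75. Those without a boundary peak included Pomp, Ecpas, Zfand2a, Ube3c and Ufd1, and Ubqln2 and Uba1 on chromosome X. The median fold of the 21 was 3.92. Whether the 2 lists differ was not tested.

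The share of proteasome genes was above that of all coding genes under each call rule tried, but its interval included the share of all genes under the start rule, the stricter q-value, the background-input rule and the fold rule, and at 5 kb its lower bound equalled that share when rounded (27.0%). Within 500 bp of a boundary it was 18 of 49 (36.7%) against 20.0% of all coding genes, and with the summit within 1 kb 18 of 49 against 21.5%. Within 5 kb it was 20 of 49 (40.8%, 27.0 to 55.8%) against 27.0%, and with any peak in the gene or within 10 kb 25 of 49 (51.0%, 36.3 to 65.6%) against 31.7%. With peaks near an annotated start, over the genes that have one, it was 15 of 41 (36.6%, 22.1 to 53.1%) against 23.9%. A -log10 q of at least 5 gave 17 of 49 (34.7%, 21.7 to 49.6%) against 20.5%, and at least 10 gave 9 of 49 (18.4%, 8.76 to 32.0%) against 10.5%. Peaks whose expected input equalled the genome background gave 9 of 49 (18.4%) against 11.0%. A fold of at least 5 left only Psma7 and Psme2, 2 of 49 (4.08%, 0.498 to 14.0%), against 3.29%.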

How the data were processed

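Arid1b ChIP and input were 1 library each. Per the submitters' processing notes, which state no roles or parameters, the tools were MACS2 2.1.1, Bowtie2 2.2.5, FastQC 0.11.8 and Picard, on build mm10. Chromatin was prepared with an enzymatic kit, per the labels' protocols. The deposited peak list gives, per peak, the summit offset, the authors' fold over input there (a linear ratio), their -log10 p-values and -log10 q-values, and a score that truncates 10 times the -log10 p-value and was not used. Read totals: not given in the sources used here.

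Whole pileups and expected levels were recovered by assuming a Poisson tail for the p-value and a pseudocount of 1 in both terms of the fold. They solved both within 0.001 in -log10 p in 100% of peaks. Recovery, distances and motif search were tested on simulated data. Python 3.11.15, pandas 2.3.3 and scipy 1.17.1 were used. Genes and promoter windows came from RefSeq, GRCm38.p6, which gives outer gene boundaries without exons. The first listed window of a gene was used, and 41 of 49 members matched. No window was used for Psma8, Psmb1, Psmb2, Psmb7, Psmc3, Psmd3, Psmd7 and Psmg2. Named genes were all members, the partner genes with a boundary peak and neighbours within 1 kb of a member's peak; partner genes without a peak and those compared by distance follow from the lists. Some genes of the lists are counted but not reported here by name. The members, lists and roles were chosen with earlier results of these data known. With 1 library per group no test was run, and the share of all coding genes is given for each call rule. Alternatives changed the window, thresholds, local input, start rule and roles.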

Additional observations from a re-analysis of the deposited data

How the results depend on the processing

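Of 102 alternative values, 78 stayed within 1.5 times the main count (for the median fold, within the interval of the median peak) and 24 moved further. Counts and medians have no direction, so a reversal could not be scored. The order of the roles, which turned under stricter rules, was not among the values. Some of the 78 compare 0 with 0 (the inhibitor gene and CRE). A -log10 q of at least 10 gave 9 members, 2 base, 2 lid and 0 assembly genes and 9 partner genes. A fold of at least 5 gave 2 members, 1 core, 0 base, 0 lid, 1 activator and 0 assembly genes, 3 partner genes and a median fold of 6.51. Peaks at background input gave 9 members, 2 core, 1 base and 1 lid genes and 11 partner genes. These 3 settings keep fewer peaks by construction. Counting peaks within 10 kb gave 7 core genes. The start rule gave 3 lid genes, since Psmd3 and Psmd7 had no window. With the base chaperones counted with base and lid, assembly had 1 of 4. Before the start only, AP-1 and NRF1 had 1 match each and YY1 had 0. Counting any listed promoter window, an alternative chosen after seeing the data, moved no motif count beyond that limit. No paired analysis was possible because there was 1 library per group, and no library could be left out.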

Other observations

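The table holds 6 pseudogenes of the family, and none had a peak within 1 kb. The interval of 0 of 6 reaches 45.9%, above the 22.2% of all protein-coding genes, and the share over all pseudogenes was not counted. The nearest peak lay 8389 bp from Psmb7-ps2, and the other pseudogenes had theirs 53617 bp (Psmb5-ps) to 3290369 bp (Psmb6-ps2) away.

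Beyond the far end of the lid gene Psmd14, 4 further peaks lay 4587 to 8493 bp outside the gene, with folds of 4.68, 4.44, 3.51 and 3.20. The strongest of them, 1235 bp wide, exceeded the peak at the start of Psmd14 (4.13), with overlapping intervals. None of the 4 lay within 1 kb of a boundary of another coding gene. Whether they lay inside another gene, farther from its boundaries, was not examined. Upstream of Psmb3, a peak of 2.94 (2.12 to 3.97) lay 3077 bp outside the gene over an expected level of 13.0, above the genome background.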
